A study of Mus musculus with 6 samples.

Results

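The antioxidant and NRF2 pathway genes are a set of 34 named mouse genes that make or recycle glutathione, run the thioredoxin and peroxiredoxin cycles, remove superoxide, or are switched on by the transcription factor NRF2. Members were taken as every probe set, a group of short DNA probes read together as 1 value, whose platform annotation gives a single gene symbol that is on the list. This gave 67 probe sets of 45101 on the array, for 31 of the 34 genes. Prdx1, Prdx5 and Prdx6 had no such probe set and were not analysed here. The rule uses no measured value, but the list was drawn up with earlier results of these data known.

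NRF2, encoded by Nfe2l2, binds antioxidant response elements in promoters together with small MAF proteins and turns on genes for glutathione synthesis, thioredoxin recycling and detoxification. In unstressed cells KEAP1 holds NRF2 for degradation, and BACH1 competes with it at the same elements. The liver makes most of the glutathione that circulates, so the genes that limit its synthesis are well studied in hepatocytes.

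Liver RNA of male BALB/c mice aged 10 weeks was measured on Affymetrix arrays in 2 groups of 3 arrays, control mice and mice under isolation stress for 30 days, and the comparison asks which liver transcripts differed after it. Mice came at 4 weeks of age, were kept 5 per cage for 10 days, and the stressed ones were then caged singly with less bedding than controls, so that single housing and bedding cannot be told apart. The labels number the arrays but do not say that each is a separate animal, so p-values measure the spread between these arrays only, which may be partly technical.

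Both groups read as liver: Alb, the hepatocyte product albumin, lay between 9947 and 10950 on the 6 arrays. Log2 values correlated at 0.969 to 0.974 within groups and at 0.955 to 0.968 between them, where the points are probe sets and not replicates. The mean intensity without the top and bottom 2% ran from 92.5 to 111, with control replicate 3 and isolated replicate 3 the brightest arrays. The log2 ratio of 3′ to 5′ control probe sets is a sign of RNA integrity. For Gapdh it was -0.51 ± 0.03 in controls against -0.53 ± 0.01 under isolation (SD, n = 3; two-sided exact permutation p = 0.2, adjusted 0.3). For beta-actin it was 1.15 ± 0.06 and 1.11 ± 0.12 (exact permutation p = 0.8, adjusted 0.8). With 3 against 3 the smallest p that test allows is 0.1. The adjustment covered 3 permutation tests, with the one on the Gclc to Gclm ratio below among them. In whole liver, fewer cells of a type and less RNA per cell cannot be told apart.

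Across the antioxidant and NRF2 genes changes lay close around 0, with Gclc, the catalytic subunit of the enzyme that limits glutathione synthesis, lower on every isolated array and just short of the call threshold. Of the 67 member probe sets, 60 for 29 genes were bright enough to test, which meant the upper 50% of all probe sets by mean log2 value. No member probe set was called at a limma adjusted p under 0.05, where 1.63% of the 22519 probe sets tested were called. At an unadjusted p under 0.05 there were 4 member probe sets, all of Gclc or Srxn1, against 11.4% of all probe sets. The median log2 change of the 60 was 0, with 30 above and 30 below 0, beside 0.035 over all tested probe sets. The median absolute log2 change was 0.135 for members and 0.187 over all. Members were not matched to the rest in brightness: 45 of the 60 were in the upper 25% of all probe sets. Brighter probe sets had smaller SEs, so the lower median need not mean that members changed less.

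**Figure D1:**
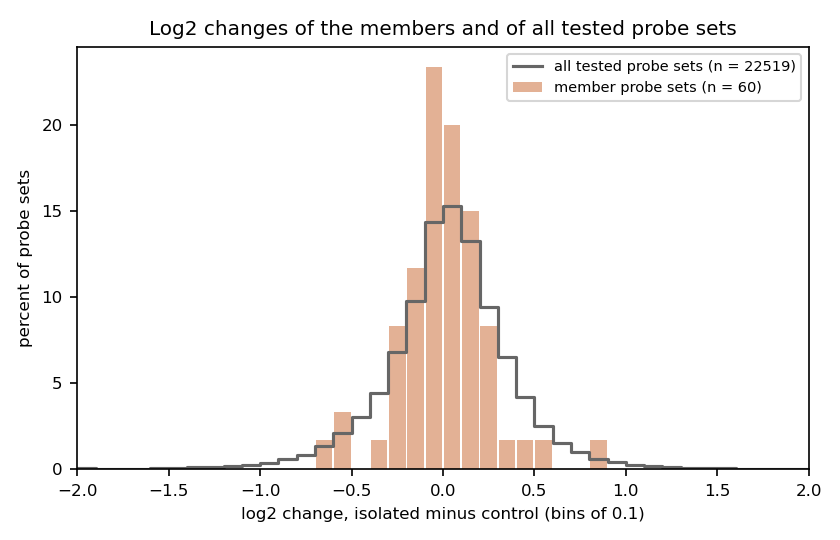
Bars give the percent of the 60 member probe sets, and the line that of all 22519 tested probe sets, in each bin of log2 change (isolated minus control, log2(intensity + 2) scale). The members, which are not matched to the rest in brightness, pile up near 0. Both Gclc probe sets and a dim one of Txn1 lie left of -0.5, and 2 of Srxn1 lie right of 0.5.

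Groups that do not overlap were found in 6 of the 60 member probe sets, or 10%, beside 15.4% of all tested probe sets. Of these, 3 were higher in isolated mice (all tested: 9.62%) and 3 lower (all tested: 5.79%). The higher ones belonged to Srxn1 with 2 and Keap1 with 1, and the lower ones to Gclc with 2 and Sod1 with 1. By the brightest tested probe set of each gene, which represents it below, 3 of 29 genes did not overlap, or 10.3%, against 16% of all 10986 genes.

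For all 29 tested genes the 95% interval of the log2 change (not adjusted for the number of genes) of the representative probe set lay inside -1 to 1. Among all tested member probe sets this held for 57 of 60, and the exceptions were 2 of Srxn1 that reached above 1 and 1 of Txn1 that reached below -1. For 17 of the 29 genes it lay inside -0.5 to 0.5. At limma's SE for each gene, a log2 change of 0.44 to 1.08 (median 0.62) would have been needed for a call. That SE, like the intervals, rests more on probe sets of like brightness than on the gene's own spread (prior degrees of freedom 16.1, residual 4).

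**Figure D2:**
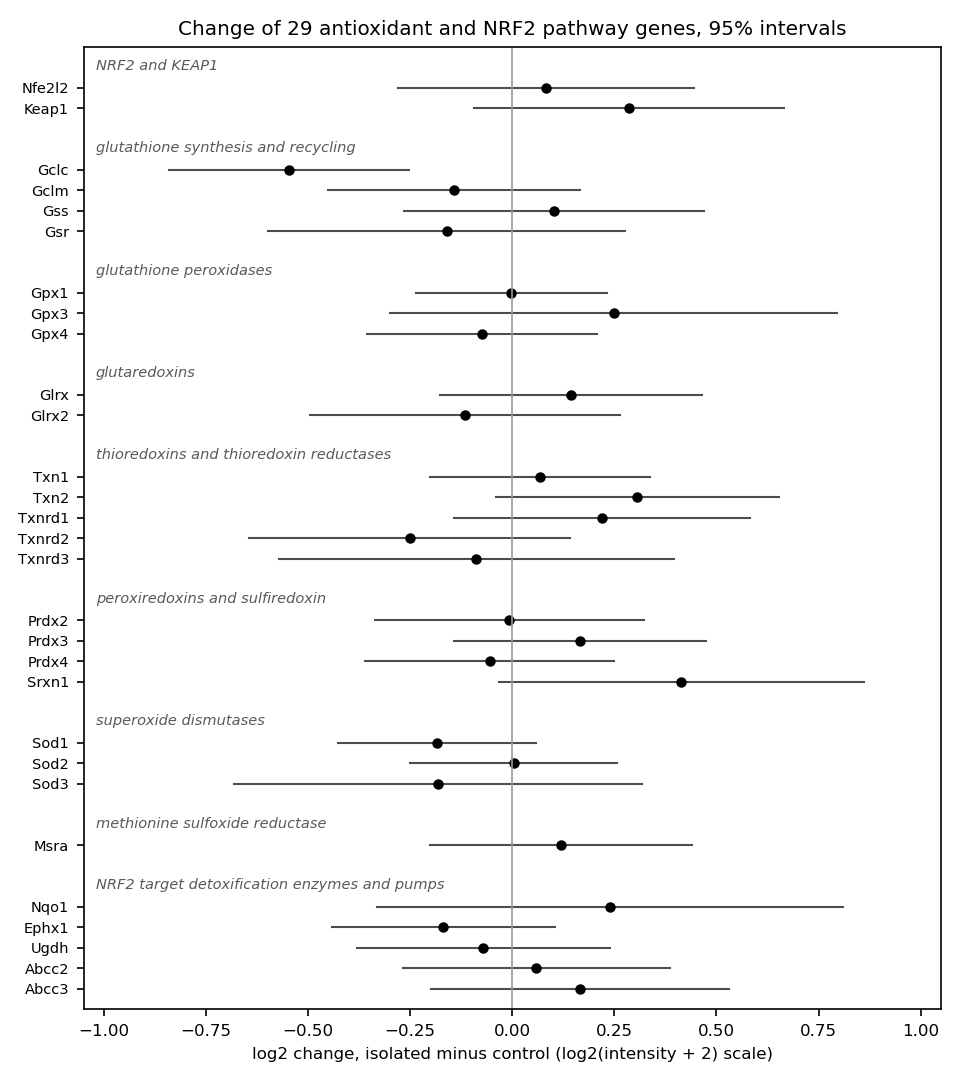
Points are the log2 change (isolated minus control, log2(intensity + 2) scale) of the brightest tested probe set of each of 29 genes, grouped by role, and lines are limma's 95% intervals, from 3 arrays per group. The interval of Gclc, from -0.84 to -0.25, is the one that leaves out 0.

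The arrays with the most extreme member values came from both groups. Control replicate 3 held the highest value of 12 of the 29 genes and isolated replicate 3 that of 10, while isolated replicate 2 held the lowest value of 11. Over all 10986 genes the same 3 arrays were highest in 26.8% and 38.6% and lowest in 30.4%. The median CV of the member genes was 13.1% on control arrays against 10.3% on isolated ones, beside 14.6% and 15.9% for all tested genes, which are not matched to the members in brightness.

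**Figure D3:**
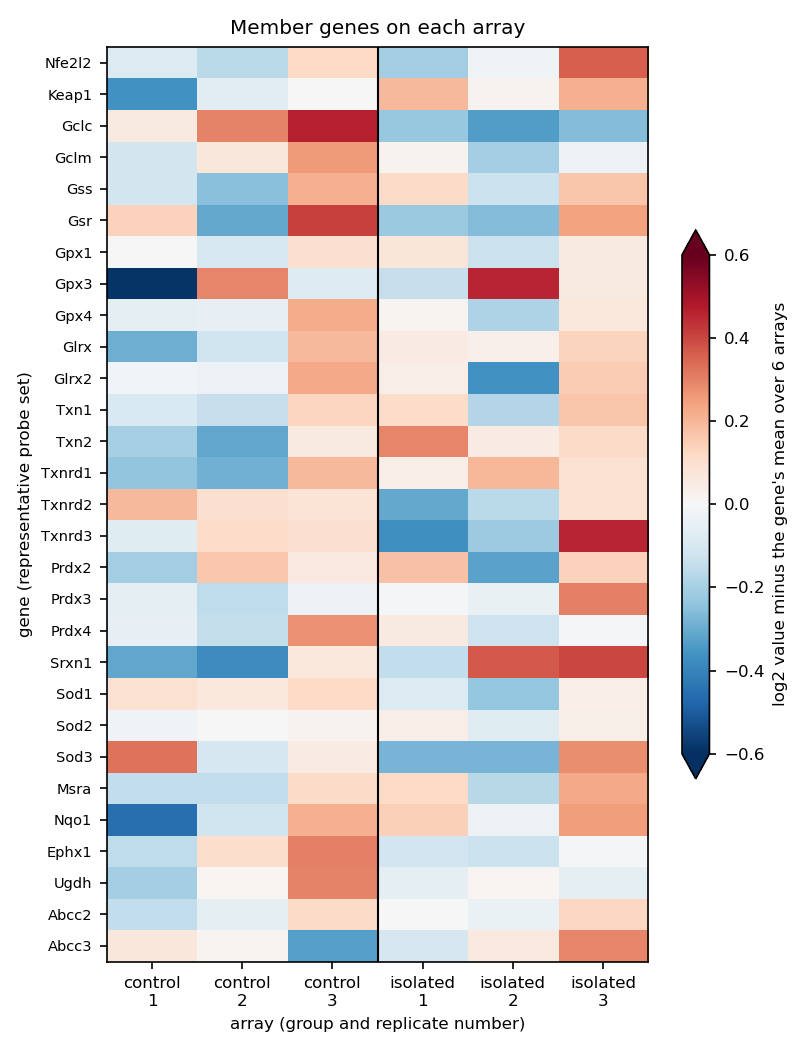
Each row is 1 of 29 member genes and each column 1 array; colour is the log2 value minus the mean of that gene over the 6 arrays, from -0.6 to 0.6. Control replicate 3 holds the highest value of 12 genes and isolated replicate 3 that of 10, while in the Gclc row every control lies above every isolated array.

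Gclc and Gclm encode the catalytic and modifier subunits of glutamate-cysteine ligase, which joins glutamate to cysteine. Gclc read 1692, 2002 and 2253 on the control arrays and 1393, 1291 and 1360 on the isolated arrays. Every isolated array lay under every control, and the isolated arrays were also closer to each other, at 1348 ± 52.0 against 1982 ± 281 (SD, n = 3). The log2 change was -0.55 ± 0.14 (SE), a level 1.46-fold lower, with a limma adjusted p of 0.0542 and rank 380 of 22519 by p. A second Gclc probe set read 1060, 1241 and 1391 against 852, 746 and 900, again without overlap. Its log2 change was -0.56 ± 0.15 with a limma adjusted p of 0.0695, so both probe sets gave nearly the same size. The threshold for Gclc at its limma SE was a log2 change of 0.55, so the gene sat at the border of a call. It passed in 8 of 18 alternative analyses, with values between -0.66 and -0.45 and limma adjusted p from 0.0145 to 0.393. The 8 included the analysis without control replicate 1 (0.0479) and none of the other 5 that left out 1 array.

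Gclm, the partner subunit, read 968, 1096 and 1246 on control arrays against 1061, 907 and 1020 on isolated ones. These groups overlapped, the log2 change was -0.14 with an interval from -0.45 to 0.17, and the limma adjusted p was 0.817. A second Gclm probe set gave -0.02. The log2 ratio of Gclc to Gclm on the same array was 0.80, 0.87 and 0.85 on control arrays against 0.39, 0.51 and 0.42 on isolated ones. That ratio, chosen after the values were seen, differed by -0.40 between the group means. Its exact permutation p of 0.1 (adjusted 0.3) is the smallest that test allows, and the ratio restates the separation of Gclc, so it is given as a description and not as a test of unequal change.

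**Figure D4:**
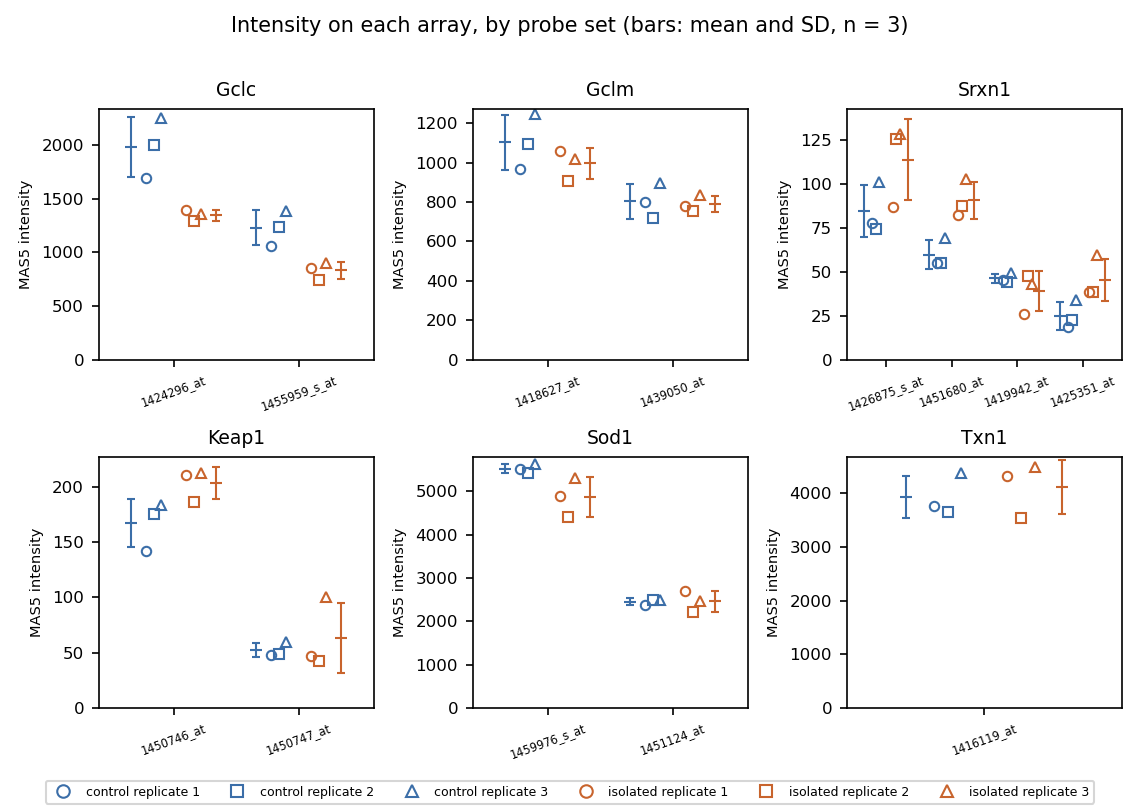
Symbols are the MAS5 intensity (linear axis from 0) on each array for the tested probe sets of Gclc, Gclm, Srxn1 and Keap1, the 2 brightest of Sod1 and the brightest of Txn1; crossbars are group means with SD (n = 3). Gclc separates the groups on both probe sets, Srxn1 on 2 of 4, Keap1 and Sod1 on 1 each, and Gclm and Txn1 on none.

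Gss, which adds glycine to finish glutathione, read 303, 274 and 379 on control arrays against 355, 299 and 368 on isolated ones, with an interval from -0.27 to 0.47. Gsr, the reductase that restores oxidised glutathione, read 201, 147 and 243 against 156, 152 and 216, with an interval from -0.60 to 0.28. Its second probe set had the opposite sign, 0.14 against -0.16, and neither passed. Slc7a11, the cystine importer that is little expressed in healthy liver, was below the tested range: its brighter probe set read 5.14, 3.45 and 9.35 on control arrays against 2.42, 2.21 and 4.07 on isolated ones. Both of its probe sets lay under the filter, and no change was tested. Of the 5 genes of glutathione synthesis and recycling, 4 were tested and 0 called.

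Neither regulator passed the test. Nfe2l2, which encodes NRF2, read 441, 416 and 507 on control arrays against 402, 458 and 598 on isolated ones, with groups that overlapped and an interval from -0.28 to 0.45 (limma adjusted p 0.931). Keap1, its repressor, read 142, 175 and 184 against 211, 187 and 213. Every isolated array lay above every control, narrowly at the closest pair, with a log2 change of 0.29 ± 0.18 (SE) and a limma adjusted p of 0.629. A dimmer Keap1 probe set overlapped, at 48.2, 49.0 and 59.4 against 47.2, 42.5 and 100. NRF2 activity is known to be set largely by degradation of the protein, which these arrays do not measure.

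Glutathione peroxidases use glutathione to reduce peroxides. Gpx1, the main cytosolic form in liver, read 7569, 7074 and 8079 on control arrays against 7937, 6916 and 7833 on isolated ones. Its log2 change was -0.003 with an interval from -0.24 to 0.23, the narrowest interval of the 29 genes. Gpx4, which reduces lipid hydroperoxides in membranes, read 2066, 2082 and 2513 against 2176, 1893 and 2248, with an interval from -0.36 to 0.21. Gpx3, the secreted plasma form, was dim at 33.5, 63.4 and 48.7 against 46.5, 71.3 and 53.5, and its interval of -0.30 to 0.80 was among the widest. The glutaredoxins, which remove glutathione from protein thiols, overlapped too. Glrx, the cytosolic form, read 766, 865 and 1073 against 971, 959 and 1031, and Glrx2, the mitochondrial form, 267, 264 and 317 against 278, 210 and 301. Intervals were -0.18 to 0.46 for Glrx and -0.50 to 0.26 for Glrx2. A second Glrx probe set gave 0.275, beside 0.144 for the representative. The other Glrx2 probe sets gave 0.132 and -0.077, beside -0.115, so they differed in sign, and none passed.

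Thioredoxins reduce protein disulfides and are themselves reduced by selenium-containing reductases. Txn1, the cytosolic form, read 3756, 3642 and 4372 on control arrays against 4322, 3547 and 4489 on isolated ones, with an interval from -0.20 to 0.34. A dim second Txn1 probe set, at 34.2 ± 14.3 against 24.1 ± 18.1 (SD, n = 3), had a log2 change of -0.65 with an interval from -1.55 to 0.26. Txn2, the mitochondrial form, read 345.7, 320.5 and 412.3 against 487.9, 412 and 430.8. The lowest isolated array lay just below the highest control, and the log2 change was 0.31 ± 0.17 (SE; limma adjusted p 0.531). The other 2 Txn2 probe sets gave 0.16 and 0.09.

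Txnrd1, the cytosolic reductase and a known NRF2 target, read 298, 287 and 403 on control arrays against 361, 404 and 374 on isolated ones. Its interval ran from -0.14 to 0.58, while a dimmer Txnrd1 probe set had a log2 change of -0.23, so its probe sets differed in sign. Txnrd2, the mitochondrial reductase, read 152, 142 and 141 against 107, 119 and 142, a log2 change of -0.25 with a limma adjusted p of 0.708. Its 3 other probe sets lay between 0.00 and 0.08. Txnrd3, best known from testis, read 69.7, 79.4 and 78.4 against 56.4, 62.7 and 101, with the isolated arrays on both sides of the controls.

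Peroxiredoxins are abundant thiol peroxidases, and sulfiredoxin, encoded by Srxn1, repairs them when they are overoxidised. Srxn1 is a textbook NRF2 target, and its promoter is printed because 3 of its 4 probe sets had the largest positive changes of the whole set. The stretch below is the 250 bases before its start in RefSeq (GRCm38.p6, chr2:152105274-152105523, plus strand), read 5′ to 3′. Capitals mark matches on either strand to TGAGNNNGC, a form of the antioxidant response element core, in which N is any base.
Srxn1: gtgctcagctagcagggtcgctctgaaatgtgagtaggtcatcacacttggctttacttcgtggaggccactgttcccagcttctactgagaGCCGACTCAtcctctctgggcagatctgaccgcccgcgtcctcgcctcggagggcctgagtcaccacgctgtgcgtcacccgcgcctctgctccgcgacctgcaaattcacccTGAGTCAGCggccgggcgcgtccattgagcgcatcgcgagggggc

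The representative Srxn1 probe set read 77.6, 74.0 and 101 on control arrays against 87.0, 125 and 128 on isolated ones. Isolated replicates 2 and 3 lay above every control and replicate 1 within them, with a log2 change of 0.41 ± 0.21 (SE; limma adjusted p 0.499). A second probe set read 55.1, 54.9 and 69.1 against 82.2, 87.2 and 102, without overlap, at 0.59 ± 0.21 (SE; 95% interval 0.15 to 1.03; limma adjusted p 0.22). The dimmest read 18.6, 22.4 and 33.8 against 38.3, 38.4 and 59.2, also without overlap, at 0.82 ± 0.31 (SE; 95% interval 0.18 to 1.47; limma adjusted p 0.251). The fourth went the other way, at 45.6, 44.1 and 49.2 against 26.2, 47.7 and 43.1, a log2 change of -0.28. None passed in any of the 16 to 18 alternatives run for each (limma adjusted p 0.0909 to 0.998), and the mean over the 4 probe sets gave 0.39 with a limma adjusted p of 0.503. Srxn1 was looked at in full after its values were seen.

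Of 7 adipocyte markers with a probe set, Adipoq, Retn and Fabp4 were highest on the same pair of isolated arrays, and Lep, Cidec, Cidea and Car3 were not. Adipoq, the fat-cell hormone adiponectin, read 4.38, 8.48 and 15.6 on control arrays against 3.78, 59.5 and 54.8 on isolated replicates 1, 2 and 3. Retn, another fat-cell hormone, read 2.395, 2.777 and 3.885 against 2.651, 19.96 and 42.2. Fabp4, a fatty acid carrier that other liver cells also express, read 117, 202 and 158 against 203, 300.3 and 404. Cidec read 19.9, 32.8 and 22.9 against 20.54, 18.96 and 19.47, and Cidea, 13.1, 18.3 and 3.58 against 12.3, 14.6 and 1.76; both code for lipid droplet proteins. Of the 9 adipocyte markers listed 3 were bright enough to test and 0 were called; their summed intensity, mostly Car3, which liver also expresses, was 11400 to 12400 on control arrays against 11200 to 12300 on isolated ones. Lep, the defining hormone leptin, read 0.82 to 3.31 on control arrays against 0.77 to 3.08 on isolated ones. Without isolated replicates 2 and 3 the representative Srxn1 probe set had a log2 change of 0.06 and the second one 0.46, each resting on 1 isolated array. The log2 change of Gclc in that analysis was -0.50. Whether the adipocyte transcripts bear on Srxn1 was not tested.

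Among the peroxiredoxins, Prdx2, a cytosolic form that is also abundant in red cells, read 1168, 1506 and 1402 on control arrays against 1522, 1079 and 1482 on isolated ones. Its low value on isolated replicate 2 stood beside the lowest sum of erythroid markers, 608, where the other 5 arrays held 790 to 1050 (3 of 7 markers with a probe set, mostly Alas2, with 0 called). Of these 3 markers Alas2 alone was lowest on that array, which was also lowest in 30.4% of all genes. Among controls the order differed: replicate 2, with the lowest control sum of 790, held the highest control Prdx2 value. Whether the erythroid markers bear on Prdx2 was not tested. Prdx3, the mitochondrial form, read 886, 832 and 900 against 919, 896 and 1138, with an interval from -0.14 to 0.48. Prdx4, which works in the endoplasmic reticulum, read 1312, 1230 and 1645 against 1411, 1245 and 1348. Its other tested probe sets gave -0.37 and -0.27 against -0.06 for this one, the same sign with none passing (lowest limma adjusted p 0.447). The representative intervals were -0.34 to 0.32 for Prdx2 and -0.36 to 0.25 for Prdx4.

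Superoxide dismutases turn superoxide into hydrogen peroxide. Sod1, the copper-zinc form of the cytosol, read 5523, 5421 and 5626 on control arrays against 4898, 4407 and 5318 on isolated ones, without overlap. The log2 change was -0.18 ± 0.12 (SE), a level 1.14-fold lower, with a limma adjusted p of 0.626. In a second bright Sod1 probe set the groups overlapped, at 2366, 2504 and 2504 against 2690, 2216 and 2476, with a log2 change of -0.003. Sod2, the mitochondrial manganese form, read 2726, 2759 and 2809 against 2848, 2629 and 2839, with an interval from -0.25 to 0.26. Sod3, the extracellular form, was dim at 69.5, 51.2 and 57.1 against 45.1, 45.1 and 67.4, with an interval from -0.68 to 0.32. Msra, which repairs oxidised methionine, read 828, 828 and 996 against 998, 818 and 1074, with an interval from -0.20 to 0.44.

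No classical NRF2 target for detoxification or export was called. Nqo1, a quinone reductase used widely as an NRF2 readout, was dim at 26.7, 34.2 and 43.7 on control arrays against 41.4, 36.4 and 44.8 on isolated ones. Its interval from -0.33 to 0.81 was the widest of the 29 genes. Ephx1, microsomal epoxide hydrolase, read 3350, 4001 and 4582 against 3441, 3404 and 3691, and Ugdh, which makes the glucuronic acid donor, 1163, 1353 and 1651 against 1290, 1351 and 1288. Intervals were -0.44 to 0.10 for Ephx1 and -0.38 to 0.24 for Ugdh. Of the export pumps, Abcc2, on the bile canaliculus, read 456, 488 and 548 against 507, 493 and 552. Abcc3, on the sinusoidal side, read 383, 371 and 291 against 341, 381 and 449. Their intervals were -0.27 to 0.39 and -0.20 to 0.53. Abcc4 was below the tested range, at 9.75, 14.4 and 26.7 against 26.8, 4.62 and 38.8. Of these 6 enzymes and pumps 5 were tested and 0 called.

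Of 18 genes with at least 2 tested probe sets, 9 had 1 sign in all of them, and the median range over the probe sets of a gene was 0.23 on the log2 scale. Probe sets of 1 gene share its transcripts and are not replicates. For Gclc, at -0.55 and -0.56, the probe sets lay closer to each other than that.

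Around the members stood a wider list of 72 pathway genes, compiled with earlier results of these data known. Of these 62 were tested: 0 rose, where limma called 0.901% of all genes higher, and 7 fell, or 11.3%, where it called 0.847% of all genes lower. At an unadjusted p under 0.05 there were 3 above 0 and 9 below. The median log2 change of the 62 was -0.01. Of the 7 called genes, 3 were Txnip, Mt1 and Mt2, a list of 3 in which every gene was called. The share called therefore depends on which genes were listed and does not measure the pathway as a whole. Txnip, the protein that binds and inhibits thioredoxin, read 1626, 1482 and 1634 on control arrays against 231, 166 and 310 on isolated ones. It fell 6.86-fold (limma adjusted p 6.75e-08), while Txn1, its binding partner, had an interval from -0.20 to 0.34. Bach1, the repressor that competes with NRF2, read 798, 904 and 1093 on control arrays against 500, 418 and 635 on isolated ones, a 1.81-fold fall (limma adjusted p 0.0114). A second Bach1 probe set gave -0.77 on the log2 scale and did not pass (limma adjusted p 0.281). Maff, a small MAF protein that can pair with NRF2, read 49.7, 62.4 and 65.8 against 3.45, 13.2 and 30.4, a log2 change of -2.13 (limma adjusted p 0.0158). Isolated replicates 1 and 2 lay under 18, the intensity at the filter's floor. Maff thus entered the test through its brighter controls, and its size is uncertain. Its size moved with the setting, to -1.33 with a pseudocount of 16 and -1.46 without isolated replicate 1. It was -2.74 without isolated replicate 3 and -3.48 without isolated replicates 2 and 3. The other small MAF genes listed had the opposite sign and were not called. Mafk read 59.5, 24.1 and 8.68 on control arrays against 41.5, 37.5 and 60.4 on isolated ones, with groups that overlapped. Its log2 change was 0.88 (limma adjusted p 0.459), and that of Mafg was 0.225 (0.712). Osgin1, an NRF2 target induced by oxidative stress, read 895, 1412 and 763 against 434, 328 and 467, a 2.43-fold fall (limma adjusted p 0.000927).

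Chac1, which degrades glutathione, read 119, 122 and 176 against 81.0, 29.5 and 61.7, a 2.52-fold fall (limma adjusted p 0.0143). The metallothioneins Mt1 and Mt2, cysteine-rich metal binders, fell 6.93-fold and 7.62-fold (limma adjusted p 0.00166 and 0.0224). Control replicate 1 stood apart in both. Mt1 read 322, 2320 and 2016 on control arrays against 102, 210 and 206 on isolated ones, without overlap. Mt2 read 60.8, 1351 and 942 on control arrays against 46.3, 44.6 and 78.3 on isolated ones, so its groups overlapped. Without control replicate 1 the log2 changes moved from -2.79 and -2.93 to -3.71 and -4.32, and without control replicate 2 that of Mt2 was -2.10. Without isolated replicates 2 and 3 that of Mt1 was -3.47, and that of Chac1 was -0.74, with its call lost (limma adjusted p 0.344). Without control replicate 3 the calls on Bach1 (limma adjusted p 0.0791), Maff (0.116), Mt2 (0.19) and Chac1 (0.121) were lost. Without the intensity trend Txnip alone of the 7 passed.

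**Figure D5:**
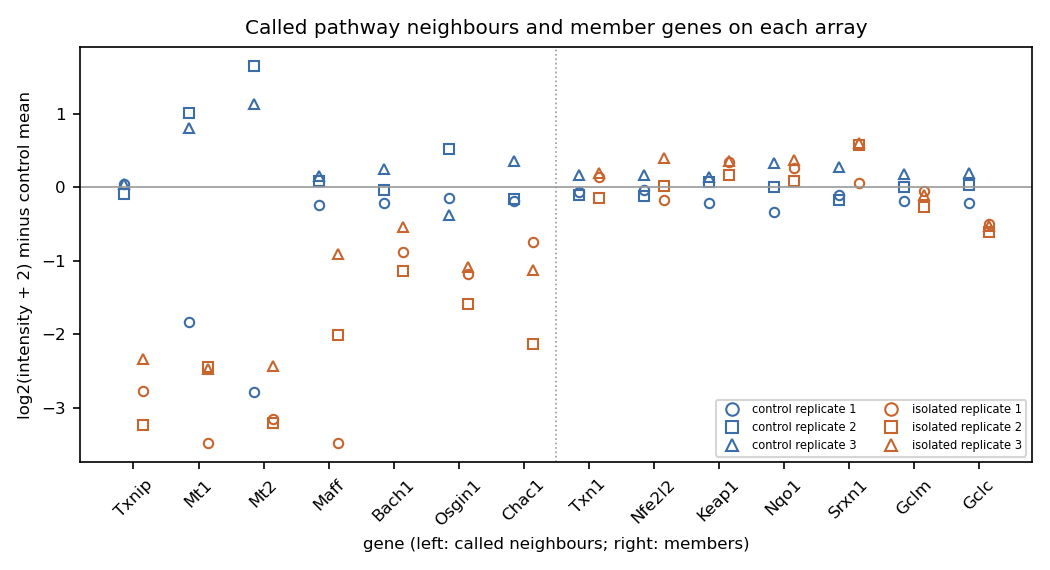
Symbols are log2(intensity + 2) minus the control mean on each array, for 7 pathway genes that were called lower (left of the dotted line) and 7 members (right). Txnip lies over 2 log2 units below its controls on every isolated array, Mt1 and Mt2 have 1 low control array, and of the members shown Gclc alone lies below all of its controls.

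There was no call among 19 further antioxidant enzymes or 7 genes of NADPH supply. Cat, the peroxisomal catalase, had a log2 change of 0.01 with an interval from -0.23 to 0.25. Hmox1, the stress-induced heme oxygenase and an NRF2 target, read 60.7, 82.8 and 81.5 against 63.4, 39.5 and 75.8, with a limma adjusted p of 0.674. Across the lists, by representative probe set, the smallest p-values outside the calls belonged to Ggct, Trim21 and the biliverdin reductase Blvrb. Ggct, a glutathione-cycle enzyme, had a log2 change of 0.54 (limma adjusted p 0.31), Trim21 of 0.63 (0.298) and Blvrb of -0.41 (0.331). A second probe set of Sesn2, from the antioxidant list, had a smaller p, at -1.10 (limma adjusted p 0.207), beside -0.36 (0.806) for its representative.

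Promoters in RefSeq (GRCm38.p6, 250 bases before to 50 after each start) were at hand for 28 of the 34 member genes, in 38 promoters, and not for Gclc, Gsr, Prdx6, Sod3, Msra and Abcc3. The core element TGACNNNGC, on either strand, was in 10 of 38 member promoters, or 26.3%, beside 12.4% of all 32851 promoters. The related form TGAGNNNGC, added after a promoter had been read, was in 6, or 15.8%, beside 17.6% of all. In the wider pathway list each form was in 17 of 85 promoters, or 20%. Printed are upstream matches of the called pathway genes that hold one (Osgin1, Mt2 and Maff), of Srxn1 and Sod1, whose groups did not overlap on some probe set, of Nfe2l2, and of Gclm as the partner of Gclc. They were picked after the values were seen. Among the called genes no match was found for Txnip, Bach1, Chac1 and Mt1 in the promoters at hand. Matches upstream of Slc7a11, Prdx1, Ugdh, Txnrd1, Txnrd3, Txn2, Abcc2 and Abcc4 are not printed, and Keap1 held none in this window. The windows run 5′ to 3′ on the gene's strand, with the match, on either strand, in capitals. The members' windows are Srxn1 (chr2:152105469-152105497, plus strand), Sod1 (chr16:90220696-90220724, plus strand), Gclm (chr3:122245413-122245441, plus strand) and Nfe2l2 (chr2:75704885-75704913, minus strand). Those of the called genes are Osgin1 (chr8:119437038-119437066, plus strand), Mt2 (chr8:94172529-94172557, plus strand) and Maff, with 2 (chr15:79346499-79346527, plus strand, and chr15:79346524-79346552, plus strand). Srxn1 and Osgin1 hold the same match, TGAGTCAGC, on opposite strands. Matches stood before genes that were called and before genes that were not, and a match is a description of the letters, not a measured binding site.
Srxn1: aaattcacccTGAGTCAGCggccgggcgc
Sod1: gccaaggtggGCGTGGTCAgactcaggcc
Gclm: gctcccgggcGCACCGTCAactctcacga
Nfe2l2: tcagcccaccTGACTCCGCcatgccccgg
Osgin1: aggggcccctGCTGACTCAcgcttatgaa
Mt2: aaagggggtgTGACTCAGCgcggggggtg
Maff: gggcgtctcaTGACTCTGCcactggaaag
Maff: aaagacagtgTGAGAAGGCcaaccccact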

How the data were processed

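Per the submitters' processing notes, the authors deposited MAS5 intensity values, a linear signal per probe set; their version, scaling target, detection calls and genome build were not given in the sources used here. RNA was labelled from 2 µg of total RNA, per the labels' protocols. The 64 control probe sets were set apart, leaving 45037. Before taking log2, 2 was added to every value (the rounded 10th percentile), which understates changes of dim probe sets, and the scale was kept as deposited. The upper 50% by mean log2 value, 22519 probe sets, were tested with limma 3.58.1 in R 4.3.3 (2 groups, no covariate, eBayes with an intensity trend, two-sided, Benjamini-Hochberg over all tested probe sets, call under 0.05). Prior degrees of freedom were 16.1, beside 4 residual ones. Symbols came from the platform annotation: 34958 probe sets had 1 symbol, 932 several and 9211 none. Of those with 1, 34741 matched a RefSeq gene by identifier, with 0 symbols changed. A gene is represented by its tested probe set with the highest mean.

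The members, gene lists and tests were chosen with earlier results of these data known. Members described as higher or lower are those with a called probe set or whose representative has groups that do not overlap. Srxn1 falls outside that rule and was added after its values were seen. Signed log2 changes are also printed, as values only, for some other members, among them Gclm, Txn2, Txnrd2 and Prdx4. From the pathway lists every called gene is named, with some of the 3 others per list that had the smallest p. Cat, Mafg and Sesn2 are named outside that rule. Single values were tested by an exact permutation test. On simulated arrays for isolated against control (22519 probe sets, 200 changed), the procedure recovered 66% of changes of 1 log2 unit and 85% of changes of 2, with 4 false calls of 155. The simulated noise was normal and independent, with a spread set by mean brightness alone, as the trend model assumes. It held no spread particular to a probe set and no array shift, so these rates need not hold for the real arrays. Alternatives covered the pseudocount, filter, scale, variance model, array weights, replicate block, arrays left out and probe set per gene. Figures used matplotlib 3.10.9. The number of arrays limits the precision.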

Additional observations from a re-analysis of the deposited data

How the results depend on the processing

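Over all tested probe sets, 174 were called higher and 193 lower. Higher calls numbered 81 without a filter, 15 without the intensity trend, 303 at an adjusted p under 0.1 and 90 without isolated replicates 2 and 3. Lower calls numbered 101 without a filter and 16 without the trend. With each array centred on its median, 258 were higher and 183 lower. With 1 array left out, higher calls ran from 97 (without isolated replicate 3) to 200 and lower calls from 82 (without control replicate 3) to 246. The count of called member probe sets, 0 in the main analysis, was 1 with a pseudocount of 16, a robust trend or array weights. It was 2 with the upper 25% of probe sets, centred arrays, quantile normalization or an adjusted p under 0.1, and 0 to 1 with 1 array left out. Each of these calls was on Gclc. Called pathway genes numbered 7, against 4 without a filter, 1 without the trend, 3 with a robust trend and 3 to 7 with 1 array left out. The median log2 change of the members lay between -0.06 and 0.12 in all alternatives. Gclc, Keap1, Sod1, Srxn1 and the 7 called pathway genes kept their sign in every alternative run for them. Beside the calls lost above, adjusted p was 0.205 for Bach1, 0.199 for Maff, 0.193 for Mt1, 0.322 for Mt2, 0.213 for Chac1 and 0.136 for Osgin1 without the trend. It was 0.103 for Maff, 0.396 for Mt1, 0.574 for Mt2 and 0.0528 for Chac1 with a robust trend. Without a filter Maff (0.137), Mt2 (0.171) and Chac1 (0.0935) lost their calls. So did Maff (0.066) and Mt2 (0.128) with quantile normalization, Mt2 (0.0586) with centred arrays, Bach1 (0.0518) as a mean over probe sets and Chac1 (0.344) without isolated replicates 2 and 3. Deviations of same-numbered arrays hardly correlated over probe sets (0.01, 0.04 and 0.01), but a correlation does not see a shift of a whole array. Control replicate 3 and isolated replicate 3 were both bright, with trimmed means of 108 and 111. Whether the numbers mark shared handling was not tested. With the replicate number as a block 265 probe sets were higher and 248 lower, and 2 member probe sets, both of Gclc, were called. Why the counts moved with the variance model was not tested. Dim probe sets, with wide intervals, limit what can be said of Nqo1, Gpx3, Srxn1 and Maff.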
